A study of Mus musculus with 19 samples.

Results

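The Myc network genes and the arrestin-domain genes Txnip and Arrdc4 were followed in sorted GFP-positive cells of sensory ganglia given α9 integrin and kindlin-1 (α9k1) or GFP alone, with or without crush of the dorsal roots. The members were chosen by name, as Myc, Mycn, Max, Mxd1, Mxd4, Mxi1, Mlx, Mlxip, Txnip and Arrdc4. Of these 10 genes, 8 have a row among the 12629 genes of the deposited expression table, and the expression of Mycn and Mlxip was not analysed here. There are 19 libraries, comprising 5 GFP-naive, 4 GFP-crush, 6 α9k1-naive and 4 α9k1-crush. In the GFP groups the left C5 to C8 dorsal root ganglia (DRGs) received AAV5-CMV-fGFP, and in the α9k1 groups they received AAV5-CAG-α9-V5 together with AAV5-CMV-kindlin1-GFP, so that both arms carried an AAV5 vector and a GFP. The crush groups had their dorsal roots crushed at the time of injection, and the naive groups did not. RNA was taken from GFP-positive cells sorted from the ganglia of adult animals 8 weeks later. The sort followed GFP that was driven by the CMV promoter, and in the α9k1 groups that GFP was tied to kindlin-1, so α9 integrin was not selected by the sort. The sample labels give C57BL/6 mice and the paper's methods give Lewis rats, and the reads were aligned to the mouse genome in either case. Between 3.87% and 4.05% of aligned bases differed from the mouse reference in each library, so the mouse sequences and exon overlaps given here may not be those of the animals used.

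Myc and its partner Max form a dimer of basic helix-loop-helix leucine zipper proteins that binds E-box DNA and activates genes of growth and metabolism. The Mxd proteins and Mxi1 compete for Max and recruit Sin3 repressor complexes to the same sites. Mlx is the Max-like partner of the glucose-sensing Mondo proteins (Mlxip, also called MondoA, and Mlxipl, also called ChREBP), whose best known targets are Txnip and Arrdc4. Txnip binds thioredoxin and restrains glucose uptake, and Myc is known in neurons as a gene that rises after injury to the peripheral axon.

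The DNA just upstream of Txnip and Arrdc4 is shown because these are the classical targets of the Mlx branch of the network. The sequences are the 250 bases before the start of each gene in RefSeq (mouse build GRCm38.p6), written 5′ to 3′ on the strand of the gene. Capitals mark the letters of the motifs searched on both strands, which were the E-box CACGTG, the paired sequence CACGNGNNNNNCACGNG of the carbohydrate response element type, and the CCAAT box (ATTGG on the other strand).
Txnip, chr3:96557707-96557956, plus strand: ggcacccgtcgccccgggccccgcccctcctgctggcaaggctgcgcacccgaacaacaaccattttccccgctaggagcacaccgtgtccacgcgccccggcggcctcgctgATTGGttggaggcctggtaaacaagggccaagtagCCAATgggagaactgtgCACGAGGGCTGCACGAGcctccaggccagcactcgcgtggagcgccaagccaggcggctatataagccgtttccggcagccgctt
Arrdc4, chr7:68749239-68749488, minus strand: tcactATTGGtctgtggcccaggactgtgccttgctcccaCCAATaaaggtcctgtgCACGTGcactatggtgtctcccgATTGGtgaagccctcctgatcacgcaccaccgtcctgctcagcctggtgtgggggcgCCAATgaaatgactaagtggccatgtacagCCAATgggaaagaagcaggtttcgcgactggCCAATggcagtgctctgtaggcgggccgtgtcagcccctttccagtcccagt
The paired sequence of Txnip was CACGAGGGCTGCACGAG, from base -85 to base -69 before the start, and it was flanked upstream by 2 CCAAT boxes. Only 15 of 32851 RefSeq promoter windows of this length held a match to that pair, which is 0.0457%. Arrdc4 had no match to the pair, 1 E-box (present in 6.02% of windows) and 6 CCAAT boxes (at least 1 in 33.8% of windows). Of the other members with a window in the RefSeq table, Mlx and Mxd4 held 1 E-box each and 2 CCAAT boxes each, Mxd1 held 4 CCAAT boxes, Mlxip held 2, and Max, Mycn and the 3 windows of Mxi1 held none of the motifs. A match is a description of letters and was not tested for binding.

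Libraries held between 36.4 and 87.6 M read pairs, with 47.5% to 54.1% of reads aligned. Fermt1 (kindlin-1) was at 0.62 ± 0.16 (SD, n = 5) in GFP-naive and 5.58 ± 0.33 (n = 6) in α9k1-naive, and at 0.57 ± 0.12 (n = 4) in GFP-crush and 7.17 ± 0.66 (n = 4) in α9k1-crush, while Itga9 (α9 integrin) was at 2.11 ± 0.25 in GFP-naive, 3.87 ± 0.92 in α9k1-naive, 1.51 ± 0.44 in GFP-crush and 6.59 ± 0.82 in α9k1-crush. The lowest α9k1-naive library (2.38) overlapped GFP-naive (highest 2.40) in Itga9, and each α9k1-crush library (5.53 to 7.51) lay above α9k1-naive (highest 5.16), so the 2 α9k1 groups differed in the level of the transgene as well as in crush. These and all further levels are the deposited log2 values, which were normalised for gene length and depth. Correlation between libraries was 0.948 to 0.976 within groups and 0.847 to 0.949 between groups. The sensory neuron marker Tubb3 had group means of 9.83 to 10.49, and the glial gene Apoe (14.28 to 16.46) was also detected in all 4 groups of the sorted material. As these are bulk samples, fewer cells of a type and less RNA per cell cannot be told apart.

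**Figure D1:**
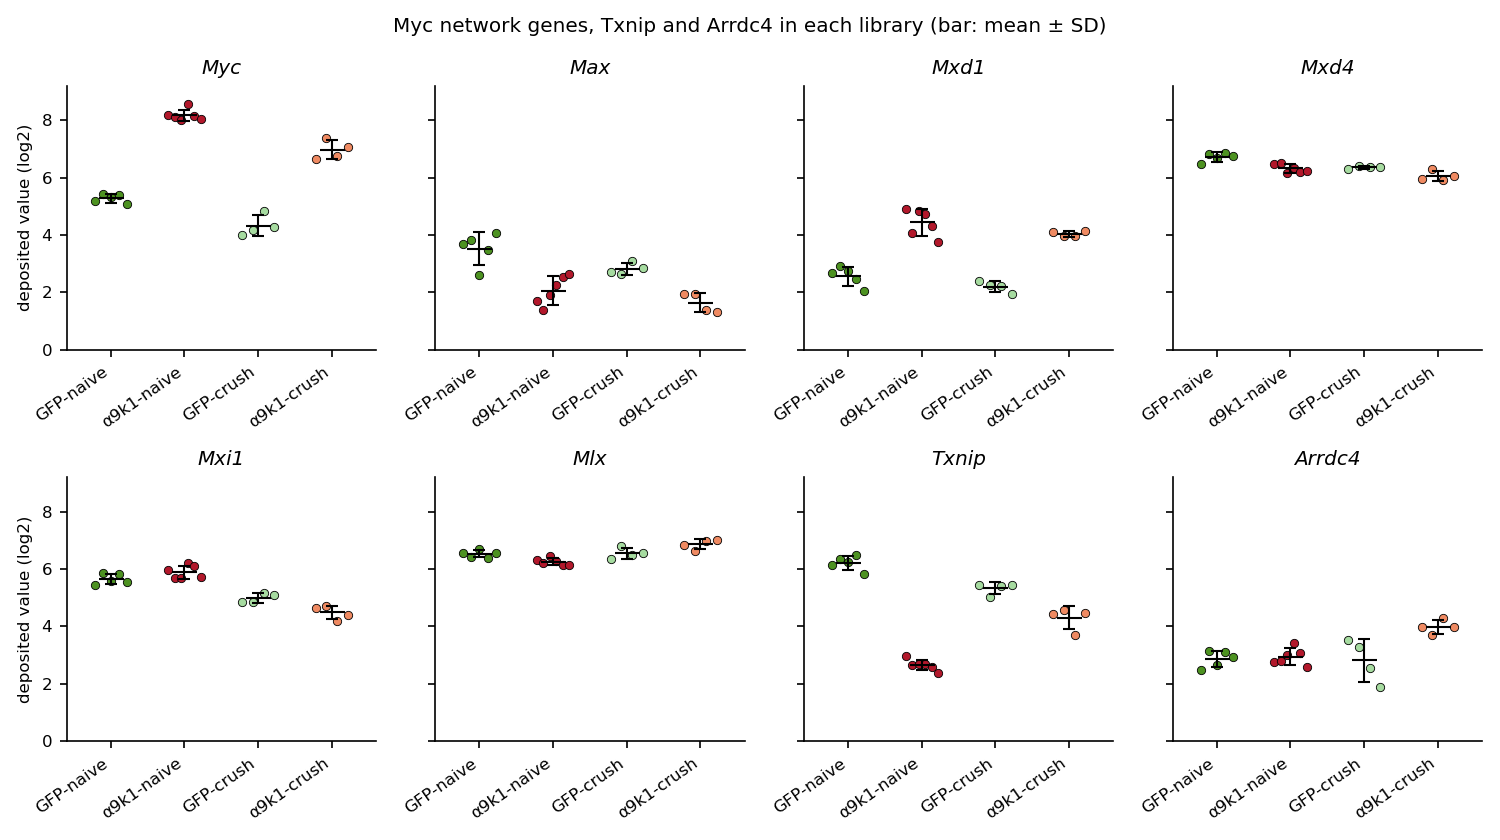
Deposited log2 value (vertical axis) of each of the 8 members in every library, by group, with the mean and SD as bars. Txnip is lowest in α9k1-naive (2.39 to 2.95) and Myc is highest there (8.01 to 8.56), and Max is at or below 2.62 in every α9k1 library.

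Txnip (chr3:96557957-96561883, plus strand, GRCm38) spanned 2.39 to 6.49 over the libraries. It was 6.15, 6.37, 6.26, 6.49 and 5.82 in GFP-naive and between 2.39 and 2.95 (median 2.67) in α9k1-naive. After crush it was 5.46, 5.03, 5.41 and 5.45 with GFP and 4.44, 4.58, 3.70 and 4.48 with α9k1. The 4 groups did not overlap at any step of the order GFP-naive, GFP-crush, α9k1-crush and α9k1-naive, from high to low. Since Txnip had been named earlier from these libraries for its fall with α9k1, all its comparisons are a description with no p. Without crush the log2FC (α9k1 against GFP, from a limma model with 3 components of library metrics as covariates) was -3.55 (SE 0.21, 95% interval -3.99 to -3.11), which is 11.7-fold lower. After crush the log2FC was -0.58 (SE 0.45, interval -1.54 to 0.38) with the covariates and -1.04 without them. It was -0.22 without α9k1-naive replicate 6, -0.97 without GFP-crush replicate 2, and turned to 0.51 in a fit of only the crush libraries. The α9k1 effect was thus 2.97 log2 units (SE 0.43, interval 2.06 to 3.88) less negative after crush than without it.

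After crush Txnip was lower than in naive roots with GFP and higher with α9k1. The log2FC was -0.996 (SE 0.21, interval -1.44 to -0.55) with GFP and 1.98 (SE 0.37, interval 1.18 to 2.77) with α9k1, the latter 3.94-fold higher. Over the 19 fits that left out 1 library they were -1.14 to -0.84 and 1.78 to 2.22, and the second was 1.57 in a fit of only the α9k1 libraries. It rests on the same low α9k1-naive values for which Txnip was named. The 4 comparisons share groups with one another, so they are not independent. Of the bases in Txnip exons, 19.4% (606 of 3123) are also exon of Gm15441 on the opposite strand, which has no row in the table. Because the library preparation does not keep strand (49.87% to 50.05% of reads were on each strand), reads from these bases cannot be told apart.

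Fibroblast markers moved in the same direction as Txnip in 3 of the 4 comparisons. For these and all further genes, adjusted p-values are over the 12629 genes and genes were called under 0.1. Of 6 genes on that list 5 have a row, and in α9k1-naive against GFP-naive all 5 were called lower (median log2FC -2.01, with Dcn at -3.10 and Col3a1 at -2.01), against a median of -0.08 and 17.6% called lower for all genes. With crush, 4 of 5 were called lower with GFP (Col3a1 log2FC -1.28, with 15.7% of all genes lower) and 4 of 5 higher with α9k1 (Col3a1 log2FC 2.29, with 4.47% of all genes higher). With α9k1 their median log2FC was 2.29 with the covariates and 0.86 without them. Without them 3 were called higher, where 55.6% of all genes were called. In α9k1-crush against GFP-crush none of the fibroblast markers was called with the covariates, where 0.911% of all genes were called. Their median log2FC there was 1.56 with the covariates and 0.14 without them. Their summed level on the log2 scale was 9.42 to 9.74 in GFP-naive, 6.62 to 8.21 in α9k1-naive, 8.11 to 8.43 in GFP-crush and 7.91 to 8.35 in α9k1-crush. The crush groups overlapped in this sum but not in Txnip. The 4 endothelial markers with a row were all called lower in α9k1-naive against GFP-naive (Cldn5 log2FC -2.04, with 17.6% of all genes lower), and their sum was 6.41 to 7.01 and 4.50 to 6.03, respectively. In GFP-crush against GFP-naive none of the 4 was called with the covariates, where 23.1% of all genes were called. None was called without them either, where 31.1% of all genes were called. Their sum was 6.30 to 7.18 in GFP-crush and 4.67 to 6.24 in α9k1-crush. Their median log2FC in α9k1-crush against α9k1-naive was 1.32 (0.37 without the covariates). In that comparison 1 was called higher, where 4.47% of all genes were. It was Flt1 (1.64, adjusted p = 0.0988, and 0.13 without the covariates). The part of these cells in the level of Txnip was not tested.

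**Figure D2:**
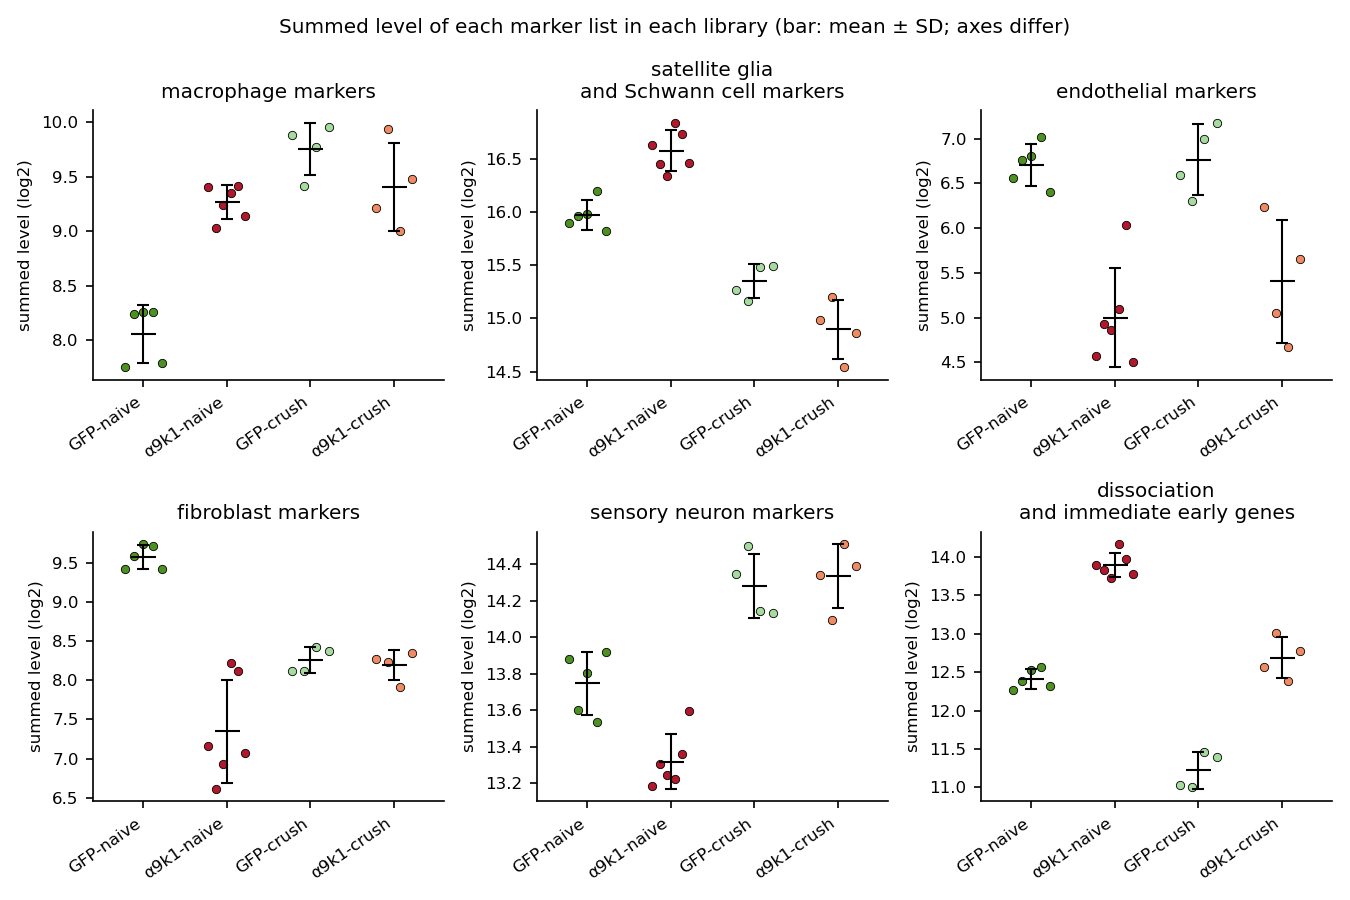
Summed level (log2 of the sum of the linear values) of 6 marker lists in every library, by group, with mean and SD as bars and a separate vertical scale for each list. Fibroblast markers are highest in GFP-naive (9.42 to 9.74), and the dissociation and immediate early genes are highest in α9k1-naive and lowest in GFP-crush.

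Arrdc4 (chr7:68736995-68749241, minus strand), a relative of Txnip in the arrestin-domain family and also a Mondo target, had a different profile. Arrdc4 was among the 25% of genes with the lowest mean values, which an alternative filter left out. It was 2.48, 3.16, 2.67, 3.09 and 2.95 in GFP-naive, 2.60 to 3.43 (median 2.89) in α9k1-naive, and 3.54, 3.27, 2.56 and 1.89 in GFP-crush. In α9k1-crush it was 3.98, 3.72, 4.31 and 3.98, above every other library, while the other 3 groups overlapped. In the fit with covariates no comparison of Arrdc4 was called, with log2FC 1.53 (SE 0.53, adjusted p = 0.112) for α9k1-crush against α9k1-naive and 1.16 (SE 0.64, adjusted p = 0.623) for α9k1-crush against GFP-crush. The first was called without GFP-naive replicate 5 (1.65, adjusted p = 0.0921), GFP-crush replicate 2 (1.83, 0.0785) or GFP-crush replicate 4 (1.84, 0.00699), with array weights (1.61, 0.0446) and in a fit of only the 2 groups (2.20, 0.0816). Without the covariates both were called, at 1.05 (adjusted p = 0.00222) and 1.18 (adjusted p = 0.00182). Without crush, α9k1 against GFP gave a log2FC of -0.30 (interval -0.93 to 0.33), and crush with GFP gave 0.07 (interval -0.56 to 0.71). The latter became 0.51 (adjusted p = 0.0960) without GFP-crush replicate 4.

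Mlx (chr11:101087277-101092207, plus strand) has no Mondo partner among the genes analysed here. Its levels were 6.57, 6.44, 6.71, 6.41 and 6.56 in GFP-naive and 6.13 to 6.45 (median 6.26) in α9k1-naive. After crush they were 6.36, 6.80, 6.49 and 6.56 with GFP and 6.85, 6.62, 6.97 and 7.02 with α9k1. The fit called it lower in α9k1-naive against GFP-naive (log2FC -0.38, SE 0.13, adjusted p = 0.0512), although the highest α9k1-naive library overlapped GFP-naive. That call was lost without α9k1-naive replicate 6 (-0.35, adjusted p = 0.229), with median-centred libraries (-0.33, adjusted p = 0.102) and in a fit of only these 2 groups (-0.33, adjusted p = 0.141). In α9k1-crush against α9k1-naive the groups did not overlap (exact permutation p = 0.00476, the smallest that 4 against 6 libraries allow), and the log2FC was 0.61 without covariates (adjusted p = 0.000117) but 0.39 with them (SE 0.23, adjusted p = 0.352). Psmc3ip shares 385 exon bases with Mlx on the other strand, 19.3% of the exon bases of Mlx, and its level was 4.13 ± 0.29 (n = 6) in α9k1-naive and 3.23 ± 0.36 (n = 4) in α9k1-crush.

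Myc (chr15:61985341-61990374, plus strand) was higher with α9k1 in both states of the roots. Its level was 5.17, 5.44, 5.34, 5.40 and 5.07 in GFP-naive and 8.01 to 8.56 (median 8.13) in α9k1-naive. After crush it was 3.98, 4.17, 4.83 and 4.27 with GFP and 6.65, 7.40, 6.77 and 7.06 with α9k1. No group overlapped another. As for Txnip, all comparisons of Myc are a description with no p. α9k1 against GFP had a log2FC of 3.01 (SE 0.21, interval 2.56 to 3.46) without crush and 3.20 (SE 0.46, interval 2.21 to 4.19) after crush, which are 8.07-fold and 9.18-fold higher. These log2FC differed by 0.19 (interval -0.75 to 1.12), a difference that turned to -0.24 without the covariates.

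Crush against naive had a log2FC of -1.04 for Myc with GFP (SE 0.21, interval -1.49 to -0.58), and -1.17 to -0.89 over the 19 fits that left out 1 library. With α9k1 it was -0.85 (SE 0.38, interval -1.67 to -0.03) with the covariates and -1.21 without them, and -1.20 to -0.68 with 1 library left out. The sum of dissociation and immediate early genes, which are known to rise while tissue is being dissociated as well as after injury, moved with Myc. All 17 genes of that list with a row were called higher in α9k1-naive against GFP-naive (median log2FC 1.41, Atf3 at 2.99, with 11.4% of all genes higher), 13 were called higher in α9k1-crush against GFP-crush (median 2.12, Zfp36 at 2.997, with 0.728% of all genes higher), and all 17 were called lower in GFP-crush against GFP-naive (median -1.15, Hspa1b at -2.17, with 15.7% of all genes lower). Without the covariates the median in α9k1-crush against GFP-crush was 1.30, with 15 called higher and 1 lower, where 58.0% of all genes were called. In α9k1-crush against α9k1-naive 7 were called lower and none higher (median -0.68, with 5.27% of all genes lower). Without the covariates all 17 were called lower in that comparison, where 55.6% of all genes were called. Their summed level was 12.27 to 12.57 in GFP-naive, 13.73 to 14.17 in α9k1-naive, 11.005 to 11.46 in GFP-crush and 12.39 to 13.01 in α9k1-crush. The part of dissociation in the level of Myc was not tested.

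Max (chr12:76937269-76962248, minus strand), the obligate partner, moved opposite to Myc in α9k1-naive. Max was among the 25% of genes with the lowest mean values, which an alternative filter left out. It was 3.68, 3.81, 2.59, 3.46 and 4.09 in GFP-naive, 1.37 to 2.62 (median 2.07) in α9k1-naive, 2.69, 2.64, 3.11 and 2.86 in GFP-crush and 1.93, 1.93, 1.37 and 1.32 in α9k1-crush. GFP-naive replicate 3 was low for its group and overlapped α9k1-naive. Max was called lower in α9k1-naive against GFP-naive (log2FC -1.07, SE 0.32, adjusted p = 0.0253), a call that was lost in a fit of only these 2 groups (-1.12, adjusted p = 0.134). In α9k1-crush against GFP-crush the groups did not overlap, and the log2FC was -1.19 without covariates (adjusted p = 0.00284) and -0.75 with them (interval -2.23 to 0.72, adjusted p = 0.811). With the covariates and 1 library left out it was -0.999 to -0.0028. Crush with GFP gave -0.76 (SE 0.32, adjusted p = 0.123), and -1.19 (adjusted p = 0.00500) without GFP-naive replicate 3.

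**Figure D3:**
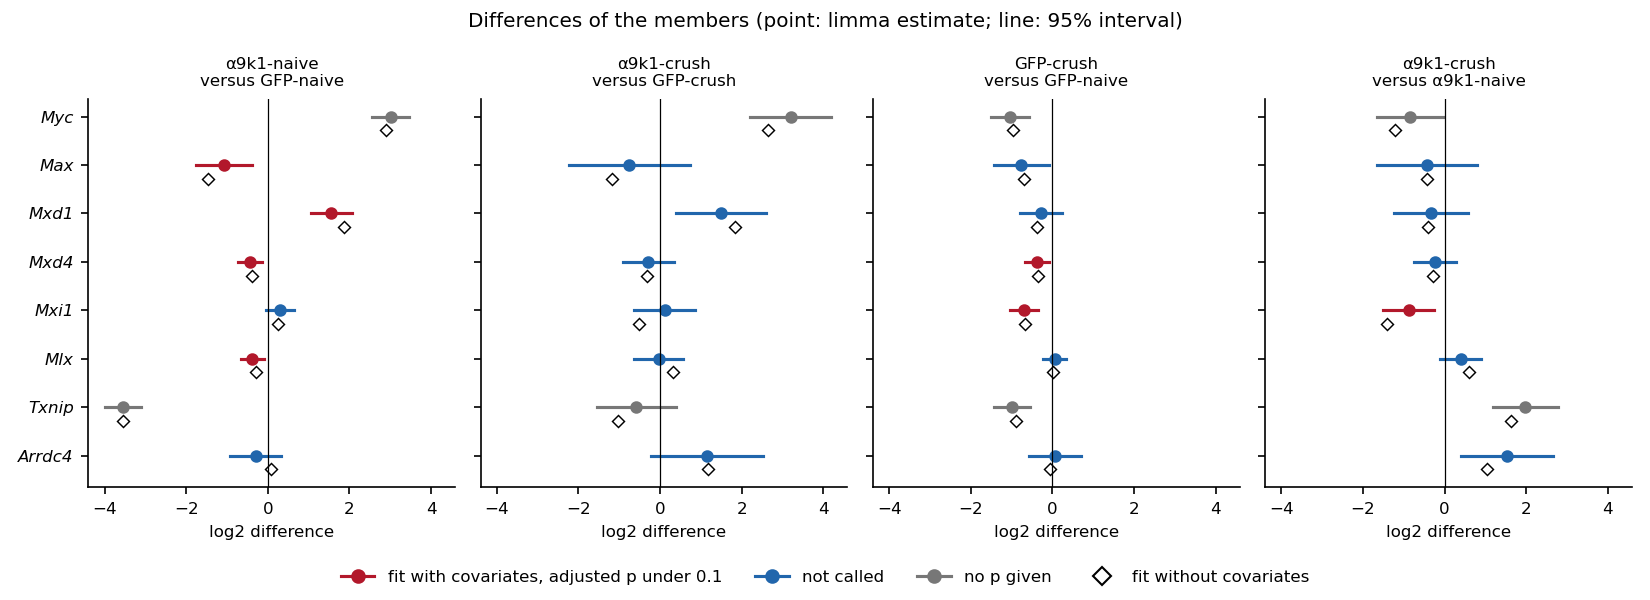
Log2 difference (horizontal axis) of each member in 4 comparisons, as the limma estimate with covariates and its 95% interval (filled points) and the estimate without covariates (open diamonds). Red marks an adjusted p under 0.1, blue a member not called, and grey a value given with no p. Intervals are widest in α9k1-crush against GFP-crush, where no tested member is called.

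The repressors of the network did not move together. Mxd1 (chr6:86647042-86669161, minus strand), a Max partner that is known for its rise as cells leave the cycle, was 2.66, 2.91, 2.74, 2.45 and 2.04 in GFP-naive, 3.76 to 4.90 (median 4.53) in α9k1-naive, 2.38, 2.25, 2.22 and 1.93 in GFP-crush and 4.09, 3.95, 3.97 and 4.13 in α9k1-crush. Neither α9k1 group overlapped either GFP group. Without crush the log2FC was 1.55 (SE 0.24, adjusted p = 0.000289), which is 2.93-fold higher and was called in all 19 fits that left out 1 library. After crush it was 1.49 (SE 0.52, interval 0.39 to 2.60, adjusted p = 0.362) with the covariates and 1.84 (adjusted p = 6.32e-06) without them. Crush changed it by -0.28 (interval -0.79 to 0.23) with GFP and by -0.34 (interval -1.25 to 0.57) with α9k1, neither of which was called.

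Mxd4 (chr5:34173883-34187720, minus strand) was 6.46, 6.83, 6.67, 6.87 and 6.76 in GFP-naive and 6.16 to 6.52 (median 6.29) in α9k1-naive. It was 6.29, 6.40, 6.36 and 6.38 in GFP-crush and 5.95, 6.30, 5.90 and 6.06 in α9k1-crush. GFP-naive lay above GFP-crush with no overlap, and the other neighbours in this order overlapped. The log2FC was -0.43 (SE 0.14, adjusted p = 0.0330) in α9k1-naive against GFP-naive and -0.38 (SE 0.14, adjusted p = 0.0729) in GFP-crush against GFP-naive. The first call was lost without GFP-naive replicate 4 (-0.38, adjusted p = 0.113) or α9k1-naive replicate 6 (-0.37, adjusted p = 0.216). The second was lost without any one of GFP-naive replicates 2, 3, 4 and 5, GFP-crush replicates 1, 2 and 4 and α9k1-crush replicate 3 (-0.41 to -0.34, adjusted p up to 0.197), with median-centred libraries (-0.24, adjusted p = 0.230), with the GC content and length trend removed (-0.21, adjusted p = 0.318) and in a fit of only these 2 groups (-0.43, adjusted p = 0.190). Gm42846 lies on the other strand over 6.06% of the exon bases of Mxd4 and had group means between 0.86 and 3.23.

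Mxi1 (chr19:53310506-53375810, plus strand) was lower in the crush groups. It was 5.44, 5.87, 5.59, 5.84 and 5.54 in GFP-naive and 5.68 to 6.20 (median 5.85) in α9k1-naive. It fell to 4.87, 4.85, 5.17 and 5.10 in GFP-crush, and was 4.66, 4.71, 4.21 and 4.40 in α9k1-crush, so that each crush library lay below each naive library. The fall with GFP had a log2FC of -0.70 (SE 0.16, adjusted p = 0.0116) and was called in all 19 fits that left out 1 library. With α9k1 the log2FC was -0.88 (SE 0.29, adjusted p = 0.0897), and -1.41 (adjusted p = 2.05e-07) without covariates. That call was kept in 4 of 19 such fits, those without α9k1-naive replicates 5 or 6 or α9k1-crush replicates 1 or 2, and the adjusted p reached 0.209 without α9k1-naive replicate 1 (log2FC -0.77). It was also lost in a fit of only these 2 groups (-0.83, adjusted p = 0.446). The α9k1 effect was 0.29 (adjusted p = 0.216) without crush and 0.11 (adjusted p = 0.962) after crush, and the latter turned to -0.51 (adjusted p = 0.00863) without covariates.

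Counted over the members, the calls were as follows. In α9k1-naive against GFP-naive, 1 of the 6 tested members was higher and 3 were lower, where 29.1% of all genes were called, 11.4% higher and 17.6% lower. The same 4 were called without the covariates, where 46.0% of all genes were called. The groups did not overlap for 1 of the 6 (21.7% of all genes). In α9k1-crush against GFP-crush, none of the 6 was called with the covariates by limma, where 0.911% of all genes were called, 0.728% higher and 0.182% lower. At an unadjusted p under 0.05, 1 of the 6 (Mxd1) and 9.11% of all genes passed. Without the covariates all 6 were called, 3 in each direction, where 58.0% of all genes were called, and the groups did not overlap for 4 of the 6 (40.8% of all genes). The covariates and the groups are partly confounded, since 74.5% of the variance of the third component lay between groups.

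For the effect of crush the same 6 members were tested. With GFP, 2 were lower (Mxi1 and Mxd4) and none was higher, where 23.1% of all genes were called, 7.39% higher and 15.7% lower, and the groups did not overlap for these 2 (19.8% of all genes). Without the covariates Max was called lower as well, making 3, where 31.1% of all genes were called. Of the calls over all genes 32.0% were higher, and 60.7% with median-centred, 46.8% with quantile-normalised and 49.0% with GC- and length-corrected values. With α9k1, 1 was lower (Mxi1) and none was higher, where 9.74% of all genes were called, 4.47% higher and 5.27% lower. Without the covariates 2 were higher (Arrdc4 and Mlx) and 2 lower (Mxi1 and Mxd4), where 55.6% of all genes were called, and groups did not overlap for 3 of the 6 (33.4% of all genes). In the interaction none of the 6 tested members was called by limma, where 2.2% of all genes were called, 1.35% higher and 0.847% lower, and at an unadjusted p under 0.05, 1 of the 6 (Arrdc4) and 14.0% of all genes passed. Of the calls in the interaction 61.5% were higher, and 41.4%, 48.9% and 45.5% with the same 3 corrections. Without the covariates Mlx (0.59, adjusted p = 0.00756) and Arrdc4 (1.10, adjusted p = 0.0295) were higher and Mxi1 (-0.75, adjusted p = 0.00886) was lower in the interaction, where 39.4% of all genes were called. The median log2FC of the 8 members was -0.34, 0.04, -0.54 and -0.29 in α9k1-naive against GFP-naive, α9k1-crush against GFP-crush, GFP-crush against GFP-naive and α9k1-crush against α9k1-naive, and that of all genes was -0.08, 0.01, -0.08 and 0.00.

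The genes most like Txnip and Myc over the 19 libraries were found by Pearson correlation of the deposited values, which here mostly follows the 4 group means and is given as a description. Txnip was followed most closely by Mrgprf (r = 0.97), H2afx (0.97), Hspa2 (0.95), Rgs5 (0.95) and Pou3f1 (0.95). Rgs5 is known as a marker of pericytes, and its group means were 3.83 in GFP-naive, 1.43 in α9k1-naive, 2.98 in GFP-crush and 2.42 in α9k1-crush. Fbxo27, Gm8909 and Cd274 were the most opposed (-0.97, -0.96 and -0.96), and Cd274, which codes for the immune checkpoint ligand PD-L1, was 2.86 in GFP-naive and 6.28 in α9k1-naive as group means. Myc was followed most closely by Socs3, Zfp36, Nfkbia, Irf1 and Ccl2 (r of 0.988 to 0.997), which are known as genes induced by cytokines and by stress. With the group means removed, r was 0.87 for Socs3, 0.86 for Zfp36, 0.76 for Ccl2, 0.63 for Nfkbia and 0.55 for Irf1, and it was 0.32 to 0.77 for the 5 genes most like Txnip, while Gm8909 turned to 0.23. Socs3, the feedback inhibitor of JAK-STAT signalling, had group means of 8.40 in GFP-naive, 7.56 in GFP-crush, 10.92 in α9k1-naive and 9.79 in α9k1-crush. Eif1b, Cdr1 and A530064N14Rik were the most opposed to Myc (-0.98, -0.96 and -0.96). Among the members, Myc and Mxd1 had r = 0.94 over the libraries and 0.18 with the group means removed, and Myc and Txnip had -0.87 and 0.42.

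**Figure D4:**
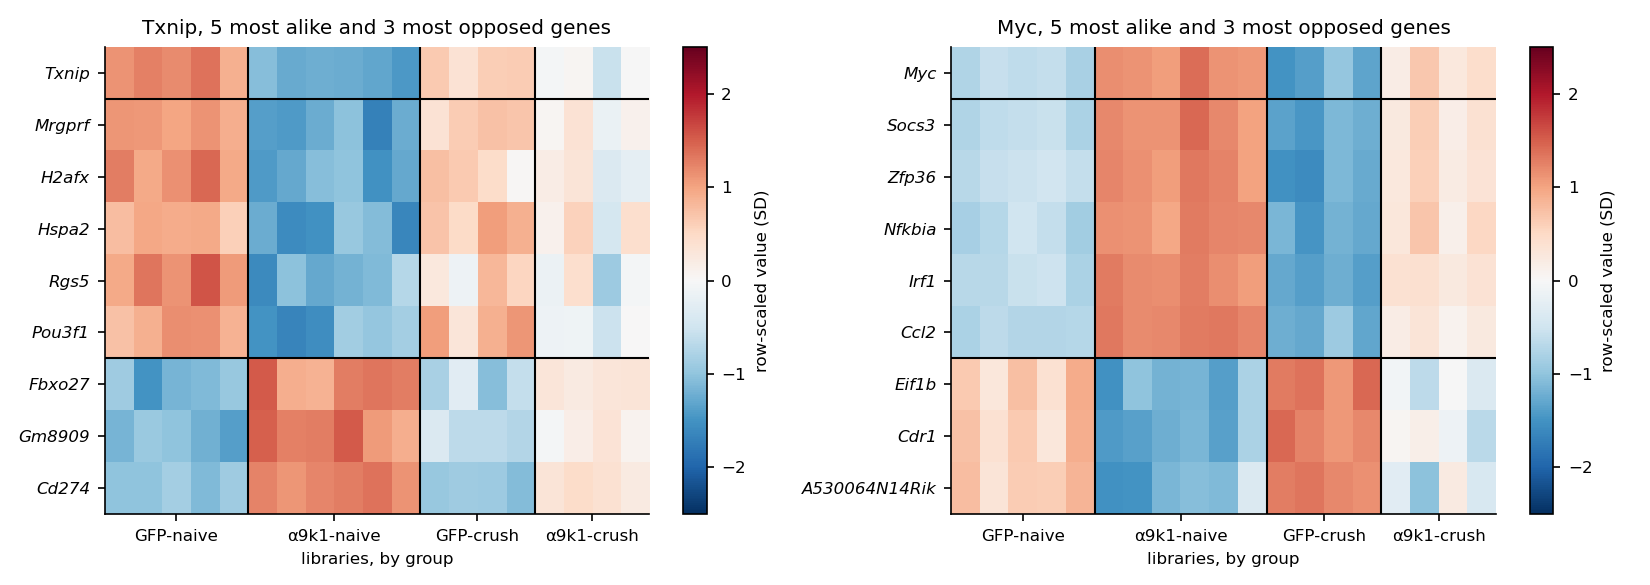
Row-scaled deposited values (colour, in SD) of Txnip (left) and Myc (right) with the 5 most alike and the 3 most opposed genes of each, in the 19 libraries ordered by group. The blocks follow the 4 groups, with Txnip lowest and Myc highest in α9k1-naive.

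The other genes of the network and their targets gave mixed counts. Of 7 other network members with a row, 1 was higher and 1 lower in α9k1-naive against GFP-naive, where 29.1% of all genes were called. Usf2, a further E-box factor, was higher (log2FC 1.71, adjusted p = 3.53e-06) and Mycbp2 was lower (-0.53, adjusted p = 0.0355). Only Usf2 was called in α9k1-crush against α9k1-naive, and was lower (-1.04, adjusted p = 0.0552), where 9.74% of all genes were called. Only Tfeb was called in GFP-crush against GFP-naive, and was lower (-0.58, adjusted p = 0.0404), where 23.1% of all genes were called. Of 20 cofactors and regulators of turnover, 1 was higher and 6 lower in α9k1-naive against GFP-naive (median log2FC -0.17, against -0.08 for all genes), where 29.1% of all genes were called. The kinase Pim1, which acts with Myc, was at 1.47 (adjusted p = 0.000158), the ubiquitin ligase Huwe1 at -0.80 (adjusted p = 0.0102) and the acetyltransferase Kat2a at -0.57 (adjusted p = 0.00281). In GFP-crush against GFP-naive 1 was higher and 4 lower, where 23.1% of all genes were called, with Huwe1 at -0.74, Aurka at -0.69 and the corepressor Ncor1 at -0.63.

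The textbook targets of Myc, mostly genes of ribosome biogenesis, gave different counts with and without the covariates. Of 36 with a row, 4 were higher and 3 lower in α9k1-naive against GFP-naive (median log2FC -0.10), where 29.1% of all genes were called, and 6 were higher and 11 lower without the covariates, where 46.0% were. None was called in α9k1-crush against GFP-crush by limma with the covariates (median -0.02), where 0.911% of all genes were, while 8 were higher and 7 lower without them, where 58.0% were. Of the genes called, Cdkn1a (2.61, adjusted p = 3.95e-05) and Gadd45a (2.10, adjusted p = 4.09e-06) are known as genes that Myc represses and that stress induces, whereas Odc1 (0.86, adjusted p = 8.00e-06) is a gene that Myc activates. In GFP-crush against GFP-naive, where 23.1% of all genes were called, 2 were higher, Cdkn1a (1.10) and Shmt2 (0.49), and 1 was lower, Ncl (-0.40). In α9k1-crush against α9k1-naive Odc1 alone was called with the covariates, and was lower (-0.60, adjusted p = 0.0452), while 14 were higher and 6 lower without them (55.6% of all genes called).

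The targets of the Mondo and Mlx factors, other than Txnip and Arrdc4, were mostly lower where called after crush. Of 12 with a row, 7 were lower and none higher in GFP-crush against GFP-naive (median log2FC -0.55, against -0.08 for all genes), where 15.7% of all genes were called lower, including the fatty acid synthase Fasn (-1.10, adjusted p = 0.00279), the elongase Elovl6 (-1.05, adjusted p = 0.000482) and Rgs16 (-0.97, adjusted p = 0.0502). In α9k1-crush against α9k1-naive 5 were lower and none higher (median -0.55, against 0.00), where 5.27% of all genes were called lower. Without the covariates 6 were lower and 2 higher, where 55.6% of all genes were called. The 5 included Pdk4 at -2.33 (adjusted p = 0.0341), Pfkfb3 at -1.87 (adjusted p = 0.00202) and Fasn at -1.39 (adjusted p = 0.0338). In α9k1-naive against GFP-naive 3 were higher and 2 lower (11.4% and 17.6% of all genes), and the higher ones were the glycolytic regulator Pfkfb3 (2.72, adjusted p = 1.18e-08), the pyruvate dehydrogenase kinase Pdk4 (2.54, adjusted p = 7.19e-05) and Rgs16 (0.80, adjusted p = 0.0801). Pfkfb3 was thus higher in the group where Txnip was lowest, and it was also higher in α9k1-crush against GFP-crush (1.39, adjusted p = 0.0955, and 2.37 without the covariates). Its interaction was negative (-1.32, adjusted p = 0.0641, and -0.69 without the covariates). The satellite glia and Schwann cell markers moved as well, with 6 of 13 lower and 3 higher in α9k1-naive against GFP-naive (29.1% of all genes called), 5 lower and 1 higher in GFP-crush against GFP-naive (23.1%) and 4 lower and 4 higher in α9k1-crush against α9k1-naive (9.74%). Their summed level was 15.82 to 16.19 in GFP-naive, 16.34 to 16.84 in α9k1-naive, 15.16 to 15.49 in GFP-crush and 14.54 to 15.20 in α9k1-crush, and its part in the lipid genes was not tested.

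**Figure D5:**
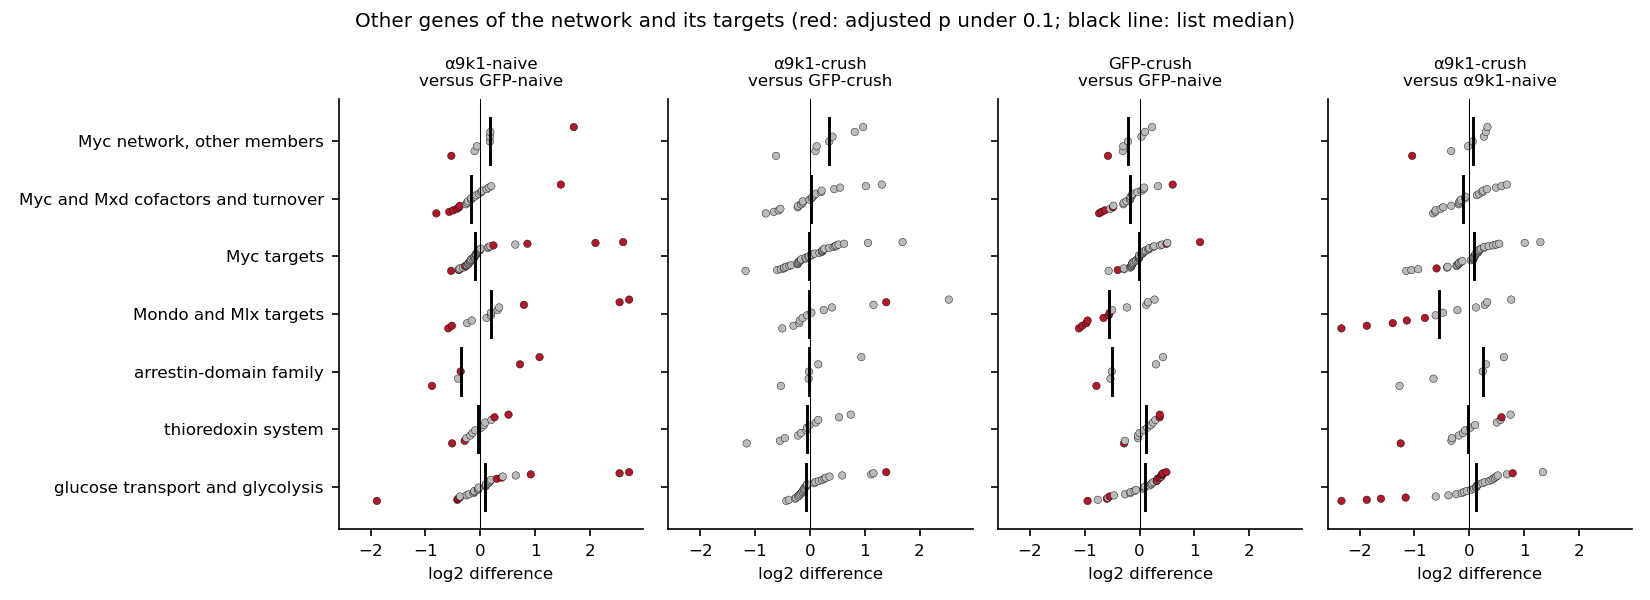
Log2 difference (horizontal axis) of each gene of 7 lists in 4 comparisons, from the limma fit with covariates, with genes called at an adjusted p under 0.1 in red and the list median as a black line. The Mondo and Mlx targets have medians of -0.55 in GFP-crush against GFP-naive and in α9k1-crush against α9k1-naive.

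The families and pathways around Txnip are read against the 29.1% of all genes called in α9k1-naive against GFP-naive. Among 5 other arrestin-domain genes with a row, Arrdc3 (1.08, adjusted p = 0.00430) and Arrb1 (0.73, adjusted p = 0.0532) were higher and 2 were lower, including Arrdc2 (-0.88, adjusted p = 0.00297), in α9k1-naive against GFP-naive, and Arrdc2 was lower in GFP-crush against GFP-naive (-0.79, adjusted p = 0.0118). Of 12 genes of the thioredoxin system, 2 were higher and 2 lower without crush in α9k1 against GFP, with Txnrd1, the cytosolic thioredoxin reductase, at 0.52 (adjusted p = 0.0763), Prdx4 at -0.51 (adjusted p = 0.00383) and Prdx2 at -0.28 (adjusted p = 0.0419). Of 27 genes of glucose transport and glycolysis, 5 were higher and 4 lower in that comparison, a share close to that of all genes. The insulin-responsive glucose transporter Slc2a4 was at -1.88 (adjusted p = 0.00290). Without the covariates 10 were higher and 5 lower, where 46.0% of all genes were called. In GFP-crush against GFP-naive (23.1% of all genes called) 7 were higher and 3 lower, and the 3 largest changes were Pdk4 (-0.95), Slc2a1 (-0.60), the main glucose transporter of glia and endothelium, and Pfkfb3 (-0.54). In α9k1-crush against α9k1-naive 1 was higher and 4 lower with the covariates, where 9.74% of all genes were called. Without them 13 were higher and 3 lower, where 55.6% of all genes were called. Slc2a3, the neuronal transporter, was at -1.61 (adjusted p = 0.0997) with covariates and -0.25 without them.

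The cell type markers not yet given were as follows. Of 11 macrophage markers with a row, 8 were higher and none lower both in α9k1-naive against GFP-naive (median log2FC 1.15, with 11.4% of all genes called higher) and in GFP-crush against GFP-naive (median 1.36, with 7.39%), and their summed level was 7.75 to 8.26 in GFP-naive, 9.03 to 9.42 in α9k1-naive, 9.41 to 9.96 in GFP-crush and 9.004 to 9.94 in α9k1-crush. Of 14 sensory neuron markers, 1 was higher and 4 lower in α9k1-naive against GFP-naive, where 29.1% of all genes were called, and their sum was 13.53 to 13.92 and 13.19 to 13.60, respectively. The neurofilament genes Nefm (-2.42), Nefh (-2.32) and Nefl (-2.10) led the lower ones. In GFP-crush against GFP-naive 7 were higher and 1 lower (23.1% of all genes called), with Nefl at 1.02, and in α9k1-crush against α9k1-naive 4 were higher and none lower (9.74% of all genes called), with Nefh at 2.79, Nefl at 2.73 and Nefm at 2.71. After crush the sum was 14.13 to 14.50 with GFP and 14.09 to 14.51 with α9k1. Their part in the levels of Myc, Mxd1 and Max was not tested.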

How the data were processed

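RNA-seq libraries of sorted DRG cells were made with the SMART-Seq v4 kit from 5000 to 10000 cells (per the labels), and the labels do not tie libraries to animals, so p-values measure the spread between these libraries, which the paper calls biological replicates. Per the paper's methods, the authors aligned reads with STAR to mm10, removed alignments to different chromosomes, counted with Salmon, removed genes with few reads, took log2 with a small pseudocount and normalised with cqn for gene length and depth. The deposited expression values are these log2 values, from -0.77 to 16.7 over 12629 genes. The deposited table of library metrics holds counts of reads and bases, fractions, percentages, ratios of coverage and other Picard values, as the authors collected them. In 5 duplicate metrics the values appear to belong to a neighbouring column (the estimated library size is at most 0.375), and they entered the components below as deposited. A further deposited table lists the genes in order, with the authors' mean, fold changes, p-values and adjusted p-values, of which only the mean was used, to check the order of the rows (r = 0.959, against at most 0.0899 in other orders).

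One limma fit (limma 3.58.1, R 4.3.3) took 19 libraries, 4 group means and 3 covariates, the leading principal components of the 48 library metrics after scaling, which hold 45.9%, 24.1% and 11.5% of the variance. The study's model also has batch, which was not used here. The calling threshold was an adjusted p of 0.1 (Benjamini-Hochberg, over the whole table), as in the study. The script was tested on simulated data. Exact permutation tests were 2-sided. The members and lists were chosen with earlier results of these data known, and Txnip and Myc, which had been named from these libraries, got no p in any comparison (the plan withheld it against GFP only). Named genes are the members, the 5 most and 3 least correlated genes, at most 3 called genes of each list with the largest difference, Fermt1, Itga9, overlapping genes and markers. Other steps ran in Python 3.11.15 (pandas 2.3.3, numpy 2.4.6, matplotlib 3.10.9). Alternatives were no covariates, only the 2 groups compared, a filter on the lowest 25% of genes, median-centred, quantile and GC and length corrected values, array weights, a replicate block and leaving out each library. The counting error of single values is unknown, as no counts per gene were used.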

Additional observations from a re-analysis of the deposited data

Results flagged for a closer look

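Among 32 groups of libraries (8 members in 4 groups), 3 held a library that lay apart from the rest by Dixon's criterion at the 95% level, where chance gives about 1 in 20. Myc was highest in α9k1-naive replicate 4 at 8.56. Txnip was lowest in GFP-crush replicate 2 at 5.03 and lowest in α9k1-crush replicate 3 at 3.70. The α9k1 effect on Txnip differed between the states of the roots by 2.97 log2 units, as given in the results with no p. Their causes were not tested.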

How the results depend on the processing

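In α9k1-naive against GFP-naive 4 members were called, and 2 with only the 2 groups compared (Mxd1 and Mxd4), 2 with the replicate block (Mxd1 and Max), and 3 with median-centred libraries (Mlx lost) or the filter on low values. In α9k1-crush against GFP-crush 0 were called, and 6 without covariates and 1 (Mxd1) with the first 2 components only, an alternative chosen after seeing the data. In GFP-crush against GFP-naive 2 were called, and 3 without covariates, and 1 with only the 2 groups compared, median-centred libraries or the GC content and length trend removed (Mxd4 lost in each). In α9k1-crush against α9k1-naive 1 was called (Mxi1), and 4 without covariates, 4 with the first 2 components only, 2 with array weights (Arrdc4 added), 0 with the replicate block and 1 with only the 2 groups compared, which was Arrdc4, with Mxi1 lost. In the interaction 0 were called, and 3 without covariates and 3 with the first 2 components only. Leaving out 1 library at a time gave 2 to 4, 0 to 0, 1 to 2, 0 to 1 and 0 to 0 calls in α9k1-naive against GFP-naive, α9k1-crush against GFP-crush, GFP-crush against GFP-naive, α9k1-crush against α9k1-naive and the interaction.

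Some log2FC that were not called changed sign. In α9k1-crush against GFP-crush, Mxi1 became -0.51 without covariates, -0.14 with only the 2 groups compared, -0.054 with the GC content and length trend removed, -0.39 with the first 2 components only and -0.039 to 0.36 with 1 library left out, and Mlx became 0.31, 0.00071 with the GC content and length trend removed, 0.052 with array weights, 0.18 with the first 2 components only and -0.21 to 0.20 with 1 library left out. Without covariates, Arrdc4 became 0.076 in α9k1-naive against GFP-naive and -0.053 in GFP-crush against GFP-naive, the latter also -0.082 with only the 2 groups compared, -0.018 with array weights and -0.15 to 0.51 with 1 library left out. Max in α9k1-crush against α9k1-naive became 0.15 with only the 2 groups compared and was -0.72 to 0.010 with 1 library left out, and Mlx in GFP-crush against GFP-naive was -0.024 to 0.16. In the interaction, Mxd1 became 0.10 with the replicate block and was -0.36 to 0.33 with 1 library left out, and Mxd4 became -0.054 with the GC content and length trend removed and was -0.0099 to 0.25. The difference between the α9k1 effects on Myc became -0.24 without covariates and -0.16 with the first 2 components only. The causes were not tested.

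The 25 same-numbered pairs of libraries from different groups had correlations of deviations from -0.27 to 0.15 (median 0.020), and 4 were over 0.1. The 109 differently numbered pairs had -0.22 to 0.26 (median 0.00022), and 15 were over 0.1. The labels do not say whether the numbers pair the samples. With the replicate block the members no longer called were Mlx (-0.36, adjusted p = 0.247) and Mxd4 (-0.28, adjusted p = 0.362) in α9k1-naive against GFP-naive and Mxi1 (-0.93, adjusted p = 0.273) in α9k1-crush against α9k1-naive, and the log2FC of Txnip in α9k1-crush against GFP-crush was -0.032. With it, the calls over all genes numbered 1132 up and 1314 down in α9k1-naive against GFP-naive (1445 and 2224 without it), 53 and 4 in α9k1-crush against GFP-crush (92 and 23), 155 and 176 in α9k1-crush against α9k1-naive (565 and 665) and 19 and 7 in the interaction (171 and 107). Components computed without the 5 duplicate metrics, also an alternative chosen after seeing the data, gave the same calls of members in each comparison. The filter on low values left out Max and Arrdc4. Median-centring moved the median log2FC of all genes from -0.08 to 0.06 in GFP-crush against GFP-naive and from 0.07 to -0.06 in the interaction. Depth per gene was unknown, so single values have no counting interval.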
